A study of Mus musculus with 9 samples.

Results

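The 31 genes described here encode the enzymes that build cholesterol, the SREBP2 regulators that control those enzymes, and proteins that carry, esterify or release cholesterol inside the cell. They were taken from the count table by a list of names and make up 31 of its 24061 gene symbols. Their mRNA was measured in bone-marrow-derived macrophages (BMDMs), primary macrophages grown from the marrow of female C57BL/6J mice aged 8 to 10 weeks, in 3 groups of 3 RNA-seq libraries. Veh cells received DMSO only. LPS cells received DMSO and then 10 ng/mL lipopolysaccharide (LPS), the bacterial agonist of TLR4, for 2 hr. T0+LPS cells received 500 nM T0901317 (T0), a synthetic agonist of the liver X receptors (LXRs), for 3 hr before the same LPS stimulation. In every group the cells had been differentiated for 7 days with conditioned medium and deprived of serum before treatment on day 8. Each library is a separately differentiated culture, and whether the cultures came from separate mice is not given in the sources used here.

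Cells hold SREBP2, the protein of Srebf2, in the endoplasmic reticulum together with its escort SCAP. When sterols are low the complex moves to the Golgi, where SREBP2 is cut and its released part enters the nucleus and switches on genes of cholesterol synthesis and uptake, while INSIG proteins retain the complex when sterols are plentiful. LXRs respond to oxysterols and drive cholesterol efflux, so the pathways are usually described as opposing arms of sterol balance in macrophages.

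What these genes share upstream of their start sites is shown first. RefSeq promoters (250 bases before to 50 bases after a start site, GRCm38.p6, the mm10 build of the count table) were at hand for 25 of the 31 genes and were searched on both strands for 4 sets of letters. These were TCACNCCA, a form of the sterol response element bound by SREBPs, CACGTG, the E-box, CCAAT, the box bound by NF-Y, a frequent partner of SREBPs, and the DR4 element bound by LXRs. The 5 promoters below are examples from genes called higher with LPS. None was at hand for Sqle or Fdft1, and those of Idi1 and Dhcr7 are not shown. Each is printed up to the base before the start site, with the matched letters in capitals (ATTGG is CCAAT read on the other strand).
Srebf2: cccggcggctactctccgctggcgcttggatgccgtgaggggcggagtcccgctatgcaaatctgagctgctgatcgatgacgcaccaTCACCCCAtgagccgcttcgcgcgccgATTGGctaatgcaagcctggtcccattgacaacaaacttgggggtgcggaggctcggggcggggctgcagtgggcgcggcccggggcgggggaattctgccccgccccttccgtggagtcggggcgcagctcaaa
Msmo1: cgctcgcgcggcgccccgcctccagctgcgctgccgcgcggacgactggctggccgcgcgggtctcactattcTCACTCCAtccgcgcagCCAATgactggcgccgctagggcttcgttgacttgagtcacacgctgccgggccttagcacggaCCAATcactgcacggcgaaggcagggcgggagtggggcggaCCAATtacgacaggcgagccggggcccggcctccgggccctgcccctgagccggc
Insig1: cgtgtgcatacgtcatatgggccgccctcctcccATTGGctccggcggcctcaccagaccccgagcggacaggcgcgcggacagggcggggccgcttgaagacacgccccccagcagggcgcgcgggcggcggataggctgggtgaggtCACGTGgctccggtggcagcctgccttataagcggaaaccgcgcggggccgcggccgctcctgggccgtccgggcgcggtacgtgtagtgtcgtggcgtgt
Hsd17b7: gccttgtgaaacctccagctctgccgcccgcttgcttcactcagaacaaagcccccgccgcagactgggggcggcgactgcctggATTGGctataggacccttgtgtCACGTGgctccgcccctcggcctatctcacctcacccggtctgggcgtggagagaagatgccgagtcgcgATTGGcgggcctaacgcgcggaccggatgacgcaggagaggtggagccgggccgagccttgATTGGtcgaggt
Cyp51: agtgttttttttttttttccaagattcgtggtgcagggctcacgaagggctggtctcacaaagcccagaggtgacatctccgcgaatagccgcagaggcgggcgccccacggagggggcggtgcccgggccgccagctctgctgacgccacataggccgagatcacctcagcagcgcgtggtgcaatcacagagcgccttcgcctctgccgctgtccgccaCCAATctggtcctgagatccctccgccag
These stretches lie at chr15:82147019-82147268 (plus strand), chr8:64733579-64733828 (minus), chr5:28071162-28071411 (plus), chr1:169969206-169969455 (minus) and chr5:4104698-4104947 (minus). Srebf2 and Msmo1 hold 1 match each to TCACNCCA, Insig1 and Hsd17b7 hold an E-box, and all 5 hold a CCAAT box, with 3 of them in Msmo1 and 3 in Hsd17b7. No matches overlap in these stretches. A gene was counted as holding a motif where at least 1 of its listed promoters did.

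A CCAAT box was present for 23 of the 25 genes (92%), against 41.1% of 27025 genes with a promoter and 42.1% of the 7232 genes that also passed the filter of the LPS comparison. E-boxes were found in 6 of the 25 (24%, in Hsd17b7, Sc5d, Dhcr7, Insig1, Scap and Nceh1), against 8.09% of all genes and 11.9% of the 7232. The letters TCACNCCA were found in 3 of the 25 (12%, in Hmgcs1, Msmo1 and Srebf2), against 4.97% of all genes and 4.3% of the 7232. Only this form of the sterol response element was searched, with any base at N and no mismatch elsewhere. Whether the genes without it hold other forms of the element cannot be told from this search. The DR4 element was likewise searched only as an exact repeat, with no mismatch allowed. None was found in the 25, and 4 of the 27025 genes, none of them among the 7232, held one. With so few matches in any gene, this search cannot tell whether the 25 lack sites that LXRs bind. Among genes that changed with LPS (results below), the CCAAT box was in 5 of the 5 that fell and 9 of the 10 that rose and had a promoter. A match of letters is a description of the sequence and was not tested as a binding site.

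The count table limits what can be said about some of these genes. It has 1 row for each RefSeq transcript, and 6696 of its 32850 rows share every base with another row and hold 0 reads, so a gene is measured only on bases that no other row covers. Of the 31 genes, 24 had 1 row and 7 had several. The genes with 1 row held between 122 (Soat2) and 233303 (Npc2) reads over the 9 libraries, and no gene with several rows held more than 272. Read counts of the 7 therefore come from only part of their bases, from 4 in Lipa to 663 of 1190 in Pmvk. They cannot be compared in amount with genes counted on all their bases.

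Hmgcs1, which makes HMG-CoA, had 59 unshared bases of 3577 and was counted at 1, 0 and 0 reads in the Veh libraries, 3, 2 and 0 in LPS and 2, 0 and 2 in T0+LPS. Mvd, which makes isopentenyl diphosphate, had 103 unshared bases and 1, 2 and 2 reads in Veh, 1, 2 and 2 in LPS and 2, 1 and 2 in T0+LPS. Insig2, the second of the INSIG retention proteins, had 256 unshared bases over 4 rows and 0, 3 and 0 reads in Veh, 0, 0 and 1 in LPS and 2, 0 and 1 in T0+LPS. These counts are near 0 in every group and the groups overlap. Lipa, the lysosomal acid lipase that frees cholesterol from lipoprotein esters, had 4 unshared bases, with 0, 1 and 3 reads in Veh, 0, 0 and 0 in LPS and 1, 0 and 0 in T0+LPS. None of these 4 genes passed the filter on low counts, so they were not tested, and their change with LPS or T0 was not detectable here. Scap (212 unshared bases of 4226, 161 reads), Fdps (216 bases, 117 reads) and Pmvk (663 bases, 272 reads) passed but are imprecise. Among the genes with 1 row, Fdft1 overlaps its neighbour Ctsb, which leaves 2089 of its 2863 bases for counting.

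**Figure D1:**
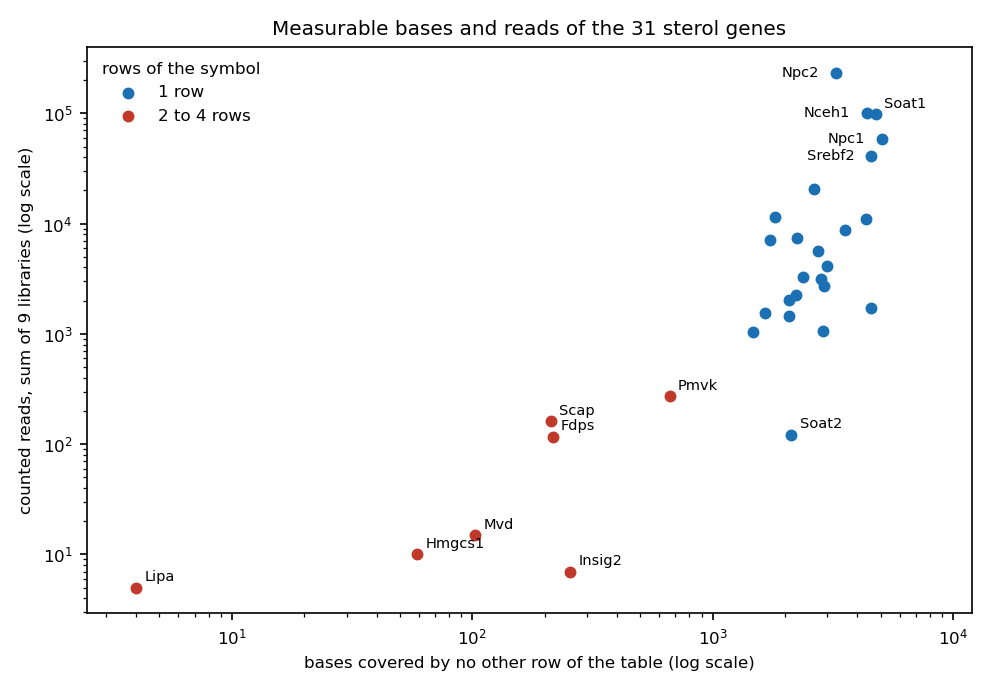
Each point is 1 of the 31 genes, placed by the number of bases that no other row of the table covers (x axis, log scale) and by its reads summed over the 9 libraries (y axis, log scale). The 7 genes with 2 to 4 rows, in red, lie at 272 reads or fewer, and the 24 genes with 1 row, in blue, lie at 122 or more.

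Levels of the 27 tested genes are in CPM, read counts scaled to a common library size after TMM (trimmed mean of M values) correction, given by library or as mean ± SD of the 3 libraries of a group. Differences were tested with edgeR's quasi-likelihood test over all symbols that passed the filter, with Benjamini-Hochberg adjustment. Log2 fold changes carry a standard error (SE) computed from the fold change and the test statistic of that fit. A gene is said to have risen or fallen where the adjusted p was under 0.05. Library totals ranged from 13299044 to 16467983 counted reads. TMM factors were 1.14 in Veh and 0.931 to 0.948 in the LPS-stimulated groups, so the scaling weighs on comparisons with Veh. The macrophage genes Lyz2, Csf1r, Cd68 and Fcgr1 summed to between 23267 and 25472 CPM in Veh, 25829 and 27144 in LPS and 28014 and 29685 in T0+LPS, most of it from Lyz2, while Fcgr1 was lower in LPS than in Veh by edgeR (log2 fold change -0.84). Itgam was at 0 on 3 unshared bases, and lists of T cell, B cell, neutrophil and fibroblast genes summed to at most 0.661 CPM each. Adgre1 was not analysed here. Dendritic cell genes summed to 0.232 to 0.529 CPM in Veh and to 1.87 to 2.99 CPM with LPS. Most of that sum was Xcr1, at a mean of 0.248 CPM in Veh, 1.79 in LPS and 2.13 in T0+LPS. In the same order Zbtb46 averaged 0.0948, 0.719 and 0.435 CPM, and Flt3 averaged 0, 0 and 0.0231 CPM. The part of the macrophage and dendritic cell differences in the results was not tested. In bulk RNA, fewer cells of a type and less RNA per cell cannot be told apart.

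Levels between genes were compared per kilobase of unshared sequence, for the 24 genes with at least 70% of their transcript unshared. In Veh the highest was Npc2, the soluble lysosomal cholesterol carrier, at 510.3 ± 19.3 CPM per kb. Next came Nceh1, a hydrolase of cholesterol esters, at 225 ± 5.57, and Soat1, which forms the esters, at 191 ± 5.95 CPM per kb. Npc1, which takes cholesterol from Npc2 and passes it out of the lysosome, followed at 97.3 ± 3.21 CPM per kb. The lowest were Idi1, the isopentenyl diphosphate isomerase, at 1.42 ± 0.310, and Soat2, the ester-forming enzyme of liver and gut, at 0.322 ± 0.00919 CPM per kb. Apart from Stard4 (7.78 ± 1.13) and Soat2, the transport and ester genes stood above every synthesis enzyme in this set, of which Msmo1 was highest at 42.8 ± 2.65 CPM per kb. In the order of levels in Veh, Msmo1 and Srebf2 (40.9 ± 3.16) overlapped, as did Insig1 and Ebp, the run from Sqle to Ggps1, the run from Lss to Nsdhl, and Fdft1 and Tm7sf2.

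LPS alone moved most of the pathway, and not in 1 direction. Of the 27 tested genes, 13 rose and 6 fell in LPS against Veh. Among all 9559 symbols tested, 32.9% rose and 31.2% fell, 64.1% in all, so the 19 of 27 (70.4%) are near the background, and the 13 that rose are 48.1%. Groups did not overlap for 19 of the 27, against 67.3% of all symbols. The median log2 fold change of the 27 was 0.25, and that of all symbols was -0.0019. Scaled by library totals in place of TMM, the median of all symbols shifted to -0.28, calls that were lower went from 48.6% to 76.1% of all calls, and the members became 10 higher and 11 lower. The 9 genes that rose and the 2 that fell by at least 1.5-fold with TMM kept their direction and their call with library totals, whereas Lbr and Npc2, called higher with TMM, were then called lower.

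Of the 3 tested regulators, Srebf2 and Insig1 rose. Srebf2 (chr15:82147269-82204960, plus strand), the precursor of the pathway's transcription factor, stood at 188, 201 and 172 CPM in the Veh libraries, 411, 394 and 399 in LPS and 379.8, 366 and 379.6 in T0+LPS. The LPS libraries all lay far above the Veh libraries, and the T0+LPS libraries lay between, just under LPS. The log2 fold change of LPS against Veh was 1.11 (SE 0.05, 95% interval 1.00 to 1.22), a 2.15-fold rise with edgeR adjusted p = 1.3e-11. Insig1 (chr5:28071412-28078662, plus strand), the retention protein that is itself a classic SREBP target, stood at 75.5, 92 and 77.4 CPM in Veh, 214, 206 and 179 in LPS and 218, 199 and 205 in T0+LPS. Both LPS-stimulated groups were separated from Veh and overlapped with each other. Its log2 fold change with LPS was 1.30 ± 0.07 (SE, edgeR adjusted p = 1.8e-10), or 2.45-fold. Scap, the sterol sensor and escort, was read on few bases, at 0.909, 1.26 and 1.39 CPM in Veh, 1.27, 1.38 and 1.54 in LPS and 0.99, 1.25 and 1.04 in T0+LPS. Its groups of Veh and LPS overlapped, and the interval of its log2 fold change (-0.31 to 0.82) spans both directions. Per kilobase, Srebf2 passed from rank 6 of 24 in Veh to rank 4 in LPS.

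In the mevalonate and isoprenoid steps, 2 of 6 tested genes rose and 1 fell. Idi1 (chr13:8885606-8892396, plus strand) was counted at 3.26, 5.02 and 3.94 CPM in Veh, 12.7, 11.4 and 10 in LPS and 8.75, 9.47 and 11.2 in T0+LPS. Every LPS-stimulated library was above every Veh library, and the rise was the largest of the 27, with a point estimate of 2.82-fold and a 95% interval of 1.17 to 1.82 on the log2 scale (edgeR adjusted p = 2.6e-07). It rests on 61 to 161 reads per library, and how reads that also match its neighbouring paralog were counted is not given in the sources used here. Acat2 (chr17:12943042-12960725, minus strand), the cytosolic thiolase that starts the pathway, was at 7.91, 8.13 and 8.28 CPM in Veh, 14, 11 and 11.9 in LPS and 13.3, 13.4 and 13.9 in T0+LPS. LPS and T0+LPS lay above Veh with no overlap, and the log2 fold change with LPS was 0.60 ± 0.11 (SE, edgeR adjusted p = 0.00019). Mvk, mevalonate kinase, fell from 13.6 ± 0.491 CPM to 10.7 ± 0.985, a log2 fold change of -0.35. Pmvk (0.06), Fdps (0.41) and Ggps1 (0.03), which act on the phosphorylated intermediates and on prenyl chains, did not pass the test, and Pmvk and Ggps1 had the opposite sign with library totals.

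The steps from farnesyl diphosphate to lanosterol gave 2 rises and 1 fall. Fdft1 (chr14:63145150-63177793, minus strand), squalene synthase and the first step committed to sterols, was at 10.5, 13 and 11.7 CPM in Veh, 22, 17.7 and 19.8 in LPS and 15.5, 14.9 and 16.8 in T0+LPS. The groups formed 3 separate bands, with T0+LPS in the middle. Its log2 fold change with LPS was 0.76 ± 0.10 (SE, edgeR adjusted p = 7.8e-06). Sqle (chr15:59315092-59331193, plus strand), squalene epoxidase, a rate-controlling enzyme, was at 33.4, 37 and 31.5 CPM in Veh, 60.8, 57.4 and 50.6 in LPS and 41.3, 35.4 and 44.4 in T0+LPS. LPS stood alone at the top, and 2 of the T0+LPS libraries were above all Veh libraries while the other was within their range. With LPS its log2 fold change was 0.73 ± 0.07 (SE, edgeR adjusted p = 2.9e-07). Lss, lanosterol synthase, the next enzyme in line, fell from 23.9 ± 2.17 to 18.6 ± 0.601 CPM, a log2 fold change of -0.36 (edgeR adjusted p = 0.0014).

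Of the 9 genes that turn lanosterol into cholesterol, 5 rose and 1 fell with LPS. Cyp51 (chr5:4080674-4104697, minus strand), lanosterol demethylase, the first of these steps, was at 40.8, 52.2 and 40.1 CPM in Veh, 137, 122 and 109 in LPS and 106, 83.1 and 92 in T0+LPS. All 3 groups were apart. The rise with LPS was 2.78-fold, a log2 fold change of 1.47 ± 0.09 (SE, edgeR adjusted p = 4.7e-10). Hsd17b7 (chr1:169949537-169969205, minus strand), the 3-ketosteroid reductase of sterol demethylation, was at 11, 12.4 and 9.38 CPM in Veh, 16.5, 15.9 and 17.8 in LPS and 12, 11.2 and 13.2 in T0+LPS. LPS was above both other groups, and those overlapped. Its log2 fold change with LPS was 0.62 ± 0.11 (SE, edgeR adjusted p = 8.3e-05). Smaller rises were those of Sc5d, the sterol desaturase (0.54), Msmo1, the C4-methyl oxidase (0.39), and Lbr, a sterol reductase that also anchors the nuclear lamina (0.16). With library totals Msmo1 kept its direction but lost its call (edgeR adjusted p = 0.19) and Lbr was lower (-0.12).

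Dhcr7 (chr7:143823167-143848410, plus strand), the reductase of the last step that makes cholesterol from 7-dehydrocholesterol, went the other way. It was at 32.5, 32.7 and 32.3 CPM in Veh, 19.1, 17.4 and 19.6 in LPS and 17.7, 16.6 and 17.7 in T0+LPS. The Veh libraries agreed closely and stood above every LPS-stimulated library. Dhcr7 fell by 42.3% with LPS, a log2 fold change of -0.79 ± 0.07 (SE, edgeR adjusted p = 6.9e-08), and per kilobase it passed from rank 12 of 24 to rank 17 while Cyp51 passed from 13 to 10. Tm7sf2, Nsdhl and Ebp, which reduce, decarboxylate and isomerise the sterol ring, had log2 fold changes of -0.03, 0.10 and 0.07 and did not pass the test. Under library totals Ebp (-0.21) and Tm7sf2 (-0.31) were called lower and Nsdhl (-0.18) was not called.

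Transport and ester genes divided. Stard4 (0.78; SE 0.10, edgeR adjusted p = 4.1e-06), a soluble sterol carrier and known SREBP2 target, was at 21.2, 27.1 and 21.3 CPM in Veh, 44.5, 39.7 and 34.7 in LPS and 32.4, 33.4 and 35.8 in T0+LPS. Its LPS libraries were above all Veh libraries and reached down into the T0+LPS range. Npc1 fell from 491 ± 16.2 to 417 ± 20.1 CPM, a log2 fold change of -0.23, whereas Npc2 had 0.12 at edgeR adjusted p = 0.049, a call lost in 5 of 6 fits that left out 1 library and reversed with library totals (-0.16). Nceh1 (chr3:27183004-27244911, plus strand) was at 1000.03, 1005 and 960.3 CPM in Veh, 604, 594 and 622 in LPS and 649.8, 639.8 and 623 in T0+LPS. Veh was far above both other groups, LPS lay just under T0+LPS, and Nceh1 fell by 38.5% with LPS (log2 change -0.70 ± 0.04, SE, edgeR adjusted p = 1.6e-10). Soat1, acting in the opposite direction on the same esters, fell by 31%, from 913 ± 28.5 to 629 ± 14.9 CPM (edgeR adjusted p = 7.5e-09). Soat2 lay between 0.661 and 1.46 CPM in all libraries and did not pass the test (log2 fold change 0.46, 95% interval -0.22 to 1.13).

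**Figure D2:**
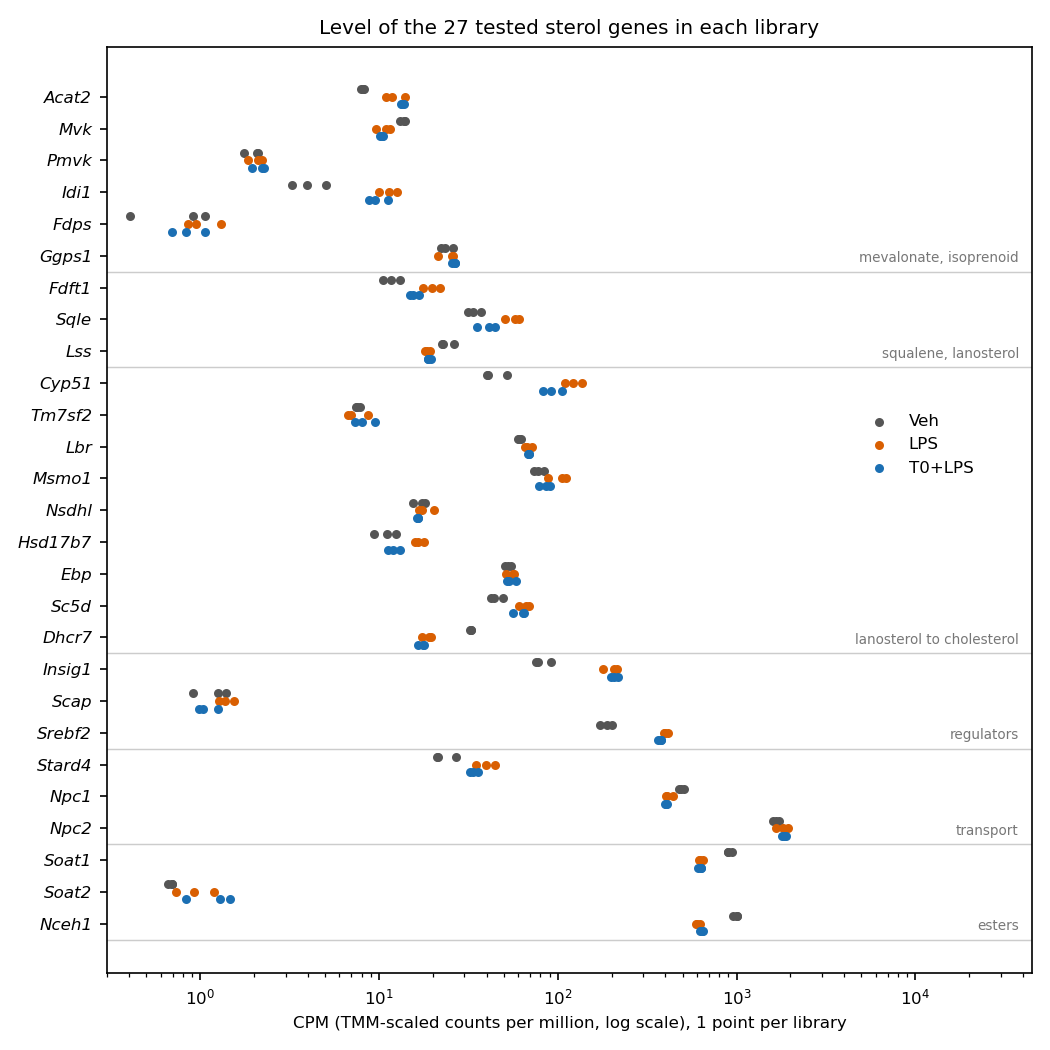
Levels of the 27 tested genes in CPM (x axis, log scale), with 1 point for each of the 9 libraries, grouped from top to bottom by step of the pathway. LPS and T0+LPS points lie above Veh for genes such as Idi1, Cyp51, Insig1 and Srebf2 and below Veh for Dhcr7, Soat1 and Nceh1, while T0+LPS departs from LPS for few genes.

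With T0 given before LPS, the genes called were sterol enzymes and each was lower. In T0+LPS against LPS, 3 of the 27 tested genes fell, Sqle, Cyp51 and Hsd17b7, or 11.1%, against 1.83% of the 9348 symbols tested for a fall and 3.18% for a change in either direction. By edgeR, DESeq2 and limma-voom alike the number that rose was 0, against 1.35% of all symbols by edgeR. The point estimate was lower for 17 of the 27 and higher for 10, with a median log2 fold change of -0.05 against 0.0028 for all symbols. Groups did not overlap for 8 of the 27, 7 of them lower in T0+LPS, against 19.1% of all symbols apart and 9.62% apart and lower. The largest fall among them was that of Sqle, at rank 203 of 9348 symbols counted from the lowest. The list of genes was chosen with earlier results of these data known. Its shares beside those of all symbols are therefore a description and not a test.

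Sqle, given library by library above, had a mean of 56.3 ± 5.21 CPM in LPS and 40.4 ± 4.53 CPM in T0+LPS. It fell by 28.3% (log2 change -0.48 ± 0.08, SE, edgeR adjusted p = 0.0042), and without each library in turn the value ran from -0.55 to -0.39 and stayed called. For Hsd17b7 the means were 16.7 ± 1.01 and 12.1 ± 0.985 CPM, a fall of 27.4% that gives a log2 fold change of -0.46 ± 0.10 (SE, edgeR adjusted p = 0.017). The call was lost without LPS replicate 1 (edgeR adjusted p = 0.064) and without T0+LPS replicate 2 (0.095). Cyp51 fell by 23.7%, from 123 ± 13.8 to 93.6 ± 11.3 CPM (log2 change -0.39 ± 0.08, SE, edgeR adjusted p = 0.017). Its call was lost without LPS replicate 1 (edgeR adjusted p = 0.12), T0+LPS replicate 2 (0.11) or T0+LPS replicate 3 (0.071). The count of genes that fell was 1 without LPS replicate 1 or T0+LPS replicate 2 and 5 without LPS replicate 3, which added Msmo1 and Stard4.

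Fdft1, between Idi1 and Sqle in the order of the pathway, had a log2 fold change of -0.33 (95% interval -0.54 to -0.12, edgeR adjusted p = 0.098) and its groups did not overlap. Msmo1 had -0.26 (edgeR adjusted p = 0.089), Stard4 -0.23 (0.21) and Idi1 -0.21 (0.52), and none of the 4 passed the test. No regulator passed the test. Srebf2 was at 401 ± 8.98 CPM in LPS and 375 ± 7.96 CPM in T0+LPS, which is -0.10 ± 0.04 on the log2 scale (SE, edgeR adjusted p = 0.33) with no overlap between groups. Insig1 had 0.06 (95% interval -0.08 to 0.19, edgeR adjusted p = 0.78). Scap had -0.35, with an interval of -0.94 to 0.25 that is too wide to place it. Changes of the enzymes that fell and of Srebf2 or Insig1 were not tested against each other.

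Values side by side show how far the genes that fell with T0 had risen with LPS. Sqle had 0.73 in LPS against Veh, -0.48 in T0+LPS against LPS and 0.23 in T0+LPS against Veh. Cyp51 had 1.47, -0.39 and 1.06, and Hsd17b7 had 0.62, -0.46 and 0.13, in the same order and all as log2 fold changes. The comparisons share libraries and their values are not independent of each other. Against Veh, with both agents, 12 of the 27 genes were higher and 6 lower, beside 32.4% and 32.9% of the 9636 symbols tested, or 65.3% in both directions. With library totals these counts were 7 higher and 11 lower, and Sqle had -0.033. Hsd17b7 (edgeR adjusted p = 0.32) and Msmo1 (log2 fold change 0.10, adjusted p = 0.13) were not called in that comparison, and both pointed lower with library totals. Srebf2 (0.99), Insig1 (1.33), Idi1 (1.26) and Stard4 (0.53) were called higher, and Dhcr7 (-0.93), Nceh1 (-0.65) and Soat1 (-0.57) lower. Soat2 was called higher there (0.77, edgeR adjusted p = 0.042) on 10 to 21 reads per library, a call lost in 5 of 6 fits without 1 library and with DESeq2 (0.19) and limma-voom (0.057). Sqle kept its call (0.019) in 4 of 6 such fits, losing it without Veh replicate 3 (0.095) or T0+LPS replicate 3 (0.098).

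**Figure D3:**
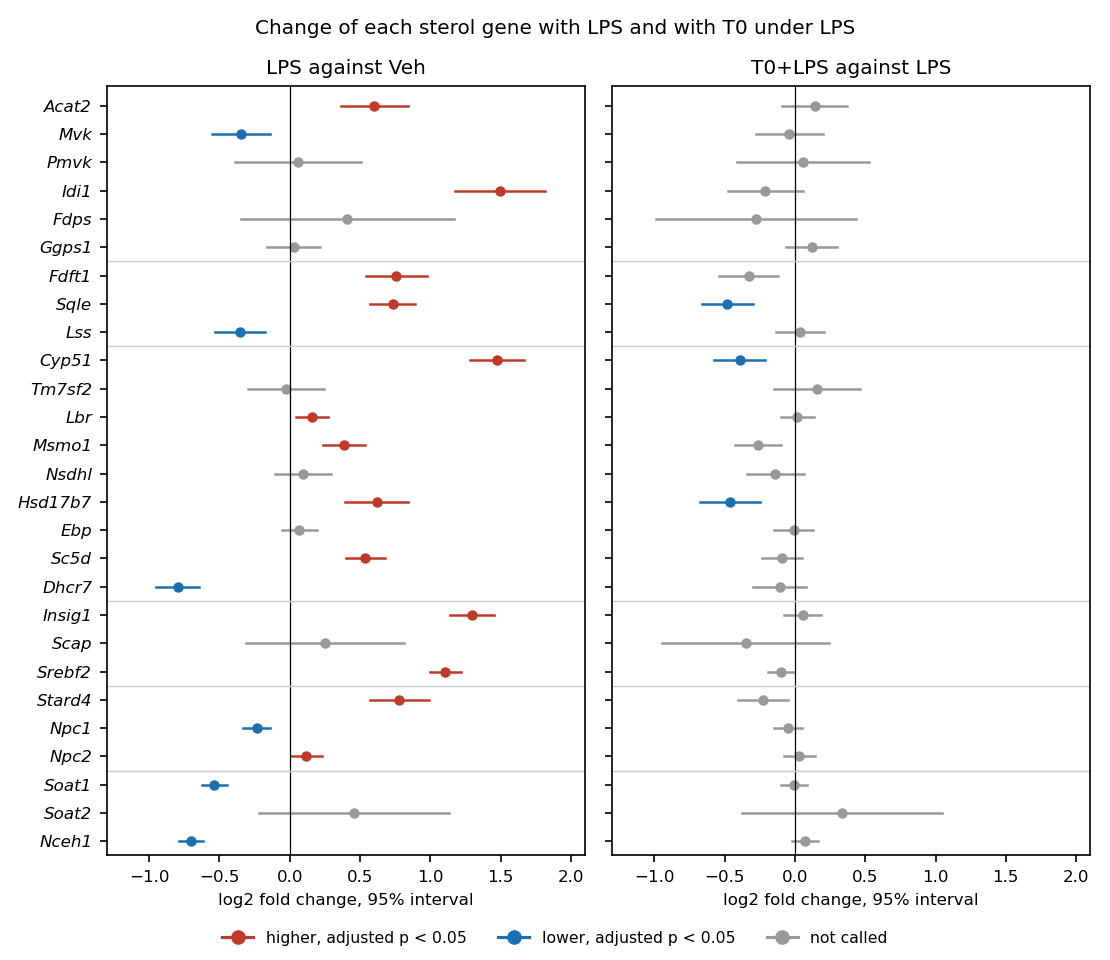
Log2 fold change of each of the 27 tested genes (points) with its 95% interval (lines), for LPS against Veh on the left and T0+LPS against LPS on the right, ordered as in the pathway. On the left 13 genes are red (higher) and 6 blue (lower), with Lbr and Npc2 reversed under library totals, and on the right 3 are blue, Sqle, Cyp51 and Hsd17b7.

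Many of the 27 genes were highest or lowest in the same library of a group. In Veh, 18 of the 27 were highest in replicate 2, where 34.4% of all tested symbols were highest. In LPS, 17 of the 27 were highest in replicate 1 (30% of all symbols), and in T0+LPS 14 of the 27 were lowest in replicate 2 (34.7%). Of the 13 genes that rose with LPS, 11 were highest in Veh replicate 2 and 10 in LPS replicate 1. LPS replicate 1 and T0+LPS replicate 2 are the libraries whose removal left 1 gene called in T0+LPS against LPS, and the part of this shared variation in the result was not tested.

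Genes of the same pathway outside the 31 were read from 4 lists of 35 genes, on SREBP processing, the isoprenoid branch, oxysterols and sterol transfer. In LPS against Veh 13 of the 27 that were tested rose and 8 fell, where 32.9% of all symbols rose and 31.2% fell. Ch25h, which makes 25-hydroxycholesterol, an inhibitor of SREBP processing, rose from 2.03, 1.32 and 1.33 CPM in Veh to 40.7, 55.7 and 52.3 CPM in LPS, a log2 fold change of 4.97 ± 0.16 (SE, edgeR adjusted p = 8.4e-14). Gramd1a, which moves plasma membrane cholesterol to the endoplasmic reticulum, had 2.13 and Stard5, a cytosolic sterol carrier, 1.13. The direction of these 3 was the same with library totals.

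In T0+LPS against LPS, 2 of the 26 tested genes of the 4 lists rose, where 1.35% of all symbols rose, and both belong to SREBP processing. Srebf1, a sister gene of Srebf2 and an established LXR target, went from 172 ± 3.05 to 424 ± 10.7 CPM, a log2 fold change of 1.30 (SE 0.05). Rnf145, a ubiquitin ligase known as an LXR target that acts on SCAP, was at 90.7, 93.8 and 88.7 CPM in Veh, 285, 284 and 289 in LPS and 381, 381 and 399.8 in T0+LPS. The groups rose in 2 steps with no overlap, by 1.65 on the log2 scale with LPS and by 0.44 more with T0 (SE 0.04, edgeR adjusted p = 1.9e-05). SCAP protein was not measured here.

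**Figure D4:**
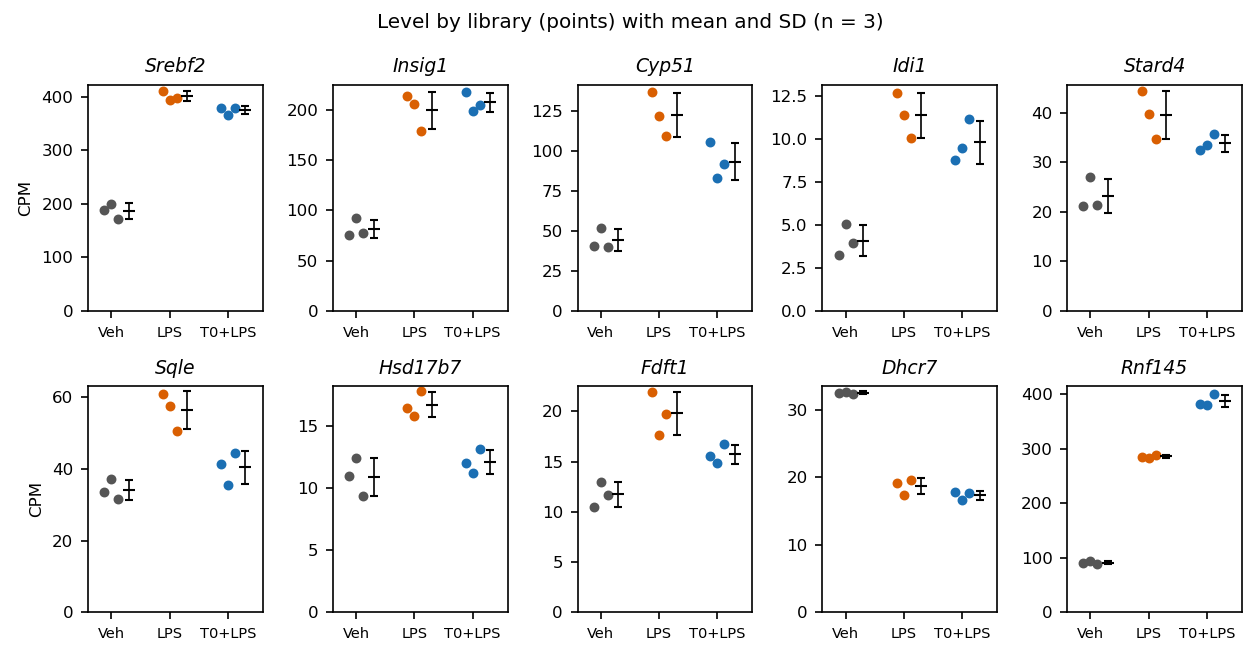
CPM in each library (points) with the mean and SD of each group (bars, n = 3) for 9 of the 31 genes and for Rnf145, with axes starting at 0. Srebf2 and Insig1 are raised in both LPS-stimulated groups, Sqle and Hsd17b7 are lower in T0+LPS than in LPS, Dhcr7 is below Veh in both, and Rnf145 rises from Veh to LPS and again to T0+LPS.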

How the data were processed

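The authors prepared libraries from polyadenylated RNA with a kit that does not mark strand. As the labels and methods state, adaptors were removed by cutadapt, HISAT2 placed the reads on mm10 transcripts, and featureCounts tallied them over RefSeq genes. They deposited whole-number read counts without normalization for 32850 rows, and counts of 1 symbol were summed here. Tables of the authors' own comparisons (fold changes and adjusted p-values for T0+LPS against LPS, and gene names for LPS against Veh) were not used.

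The quasi-likelihood test of edgeR 4.0.16 (R 4.3.3) was applied to the counts, with filterByExpr over the 2 groups compared, TMM factors, 6 libraries per fit and Benjamini-Hochberg adjustment over all symbols tested. Levels are CPM with TMM factors from all 9 libraries. Standard errors and 95% intervals were computed from the log2 fold change and the F statistic of the edgeR fit. Library totals were between 13299044 and 16467983. No pair of replicates agreed within sampling noise. Alternatives were DESeq2 1.42.0, limma-voom (limma 3.58.1), other scalings and filters, unsummed rows, 1 fit of all 9 libraries, a block for the replicate number, and the omission of each library.

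The members and lists were chosen with earlier results of these data known. Values in every library are given for members called in T0+LPS against LPS, members called with at least 1.5-fold in LPS against Veh, the 4 regulators, and members under 10 reads in every library. Other pathway genes are named where called with T0 or by at least 2-fold with LPS, apart from 1 that is not reported here. The treatment time of Veh cells before harvest is not given in the sources used here.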

Additional observations from a re-analysis of the deposited data

How the results depend on the processing

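In LPS against Veh, library totals in place of TMM gave 1696 symbols higher and 5408 lower (3148 and 2982 with TMM), and 11 members lower in place of 6. In T0+LPS against Veh the same change gave 7 members higher in place of 12, 11 lower in place of 6, and 1661 and 5520 symbols higher and lower in place of 3121 and 3172. Members with the opposite sign under library totals were, in LPS against Veh, Pmvk (-0.22), Ggps1 (-0.25), Lbr (-0.12), Nsdhl (-0.18), Ebp (-0.21), Scap (-0.029) and Npc2 (-0.16); and in T0+LPS against Veh, Pmvk (-0.17), Fdps (-0.15), Ggps1 (-0.14), Sqle (-0.033), Tm7sf2 (-0.16), Lbr (-0.11), Msmo1 (-0.16), Hsd17b7 (-0.13), Ebp (-0.23) and Npc2 (-0.14). The cause was not tested.

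In T0+LPS against LPS, testing without a filter gave 5 members lower in place of 3 (Fdft1 and Msmo1 added) and 225 symbols higher and 285 lower in place of 126 and 171. Without 1 library in turn the members that fell numbered 1 to 5, and the symbols 59 to 167 higher and 82 to 191 lower, with the lowest counts without LPS replicate 1. In LPS against Veh the members called without 1 library were 11 to 12 higher and 6 lower. Members with the opposite sign in some of those fits were, in LPS against Veh, Pmvk (-0.025 to 0.12), Ggps1 (-0.035 to 0.10) and Tm7sf2 (-0.15 to 0.033); in T0+LPS against LPS, Mvk (-0.11 to 0.015), Pmvk (-0.0080 to 0.13), Lbr (-0.013 to 0.061), Ebp (-0.059 to 0.031), Insig1 (-0.015 to 0.11), Npc2 (-0.019 to 0.083) and Soat1 (-0.017 to 0.012); and in T0+LPS against Veh, Fdps (-0.20 to 0.34), Ebp (-0.0058 to 0.082) and Scap (-0.29 to 0.018).

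With the replicate number as a block, 12 members were higher and 6 lower in LPS against Veh, 4 were lower in T0+LPS against LPS (Msmo1 added) and 11 were higher and 6 lower in T0+LPS against Veh. The deviations of libraries with the same number correlated by -0.0466 to 0.0533. With 3 libraries per group, these values cannot settle whether the numbers pair the libraries. Over all results and alternatives, 1282 values kept their direction and their side of the threshold, 31 lost a call, 10 gained one and 38 changed sign. Depth limits the genes read on few bases, whose intervals are wide.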
